A study of Mus musculus with 10 samples.

Results

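The GIMAP genes (GTPases of the immunity-associated protein family) were followed in natural killer cells (NKC) that had been isolated from the spleens of Runx3 knockout and wild-type mice and cultured. The members were the 8 genes Gimap1, Gimap3, Gimap4, Gimap5, Gimap6, Gimap7, Gimap8 and Gimap9, taken by gene symbol from the platform's annotation. They were measured by 11 of the 45101 probe sets of an Affymetrix mouse array, with 5 genes on 1 probe set and 3 genes on 2 probe sets. They are 8 of the 18194 genes that a single-symbol probe set could name, and each gene's value is that of its probe set with the highest mean over the 10 arrays. Genes entered the tests when their probe set was at log2 5 or above in 2 or more arrays. All 8 members passed this filter, and 7 of them reached log2 5 in every array. The 9391 genes tested in all form the background for every count below.

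The 10 arrays fell into 4 groups of splenic NKC from ICR mice aged 6 weeks: Runx3-/- (KO) cells in mouse IL-15 (2 arrays), Runx3+/+ (WT) cells in mouse IL-15 (2 arrays), KO cells in human IL-2 at 1000 u/ml (3 arrays) and WT cells in the same IL-2 (3 arrays). All cells had been enriched by negative selection and cultured for 7 days, and each sample came from its own animal of either sex. The genotype is that of the whole animal, so the KO cells had also developed without Runx3. Runx3 is a DNA-binding transcription factor of the RUNX family that is active in cytotoxic lymphocytes, and the design asks how its loss alters gene expression under each cytokine.

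GIMAP proteins are small GTP-binding proteins that share the AIG1 type of GTPase domain, and most of them sit on intracellular membranes such as the endoplasmic reticulum, lysosomes or lipid droplets. Their genes form one cluster and are expressed chiefly in lymphocytes, at high levels in resting cells. They are known for a part in lymphocyte survival: animals without functional Gimap5 lose T cells and NKC, and Gimap1 is needed for mature T and B cells in mice. Gimap3 is a close relative of Gimap5 in the mouse, Gimap4 is linked to the pace of programmed death in T cells, and Gimap6 is linked to autophagy through ATG8 family proteins. Human GIMAP7 can pair with other GIMAP proteins through its GTPase domain, Gimap8 carries more than one such domain, and the role of Gimap9 is little described.

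The signals are log2 values normalised by the authors. For every probe set the KO and WT arrays with the same number summed to the same value within a cytokine, to within 0.00013 in IL-15 and 0.00014 in IL-2. Differences between numbered pairs had thus been removed before deposit. The KO and WT array of a pair are therefore mirror images around their cytokine's mean. The SD within KO and WT arrays is the same by construction. The error of a KO versus WT difference is given as the SD over pairs. Within a cytokine, KO and WT arrays lie apart exactly when all pair differences of a gene have the same sign. Separation of the arrays and a common sign of the pairs are thus the same observation.

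Array medians lay between 3.20 and 3.37 on the log2 scale, and 34.6% to 36.7% of probe sets reached log2 5. Of 11 measured NKC markers, 10 reached log2 5 in every group. The exception was Itga2, which encodes the DX5 antigen. Of 12 T cell markers, 6 did in every group, with Cd4, Cd5, Cd6, Cd8a, Cd8b1 and Themis below it. Of 7 measured B cell markers, Cd79a, Cd79b, Ms4a1, Cd22 and Pax5 were below log2 5 in every group. Runx3 itself had log2 signals of 11.41 and 11.35 in KO cells and 12.44 and 12.51 in WT cells in IL-15. In IL-2 it had 11.41, 11.15 and 10.66 in KO cells and 11.31, 11.57 and 12.06 in WT cells, and it was not called in either cytokine (limma adjusted p = 0.293 in IL-15 and 0.254 in IL-2). Where its probes lie relative to the deleted part was not given in the sources used here, so these values do not check the genotype.

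The 8 genes lie next to each other on chromosome 6, in the order Gimap8, Gimap9, Gimap4, Gimap6, Gimap7, Gimap1, Gimap5 and Gimap3 in the RefSeq annotation of GRCm38.p6, with 0 other protein-coding genes between them. The 250 bases before the annotated start are shown for the genes that were called in the KO versus WT comparison in IL-2, since Runx3 binds DNA at a known hexamer. Sequences are from RefSeq (GRCm38.p6), 5′ to 3′ on the gene's strand, and capitals mark a RUNX hexamer on either strand.
Gimap3, chr6:48770852-48771101, minus strand: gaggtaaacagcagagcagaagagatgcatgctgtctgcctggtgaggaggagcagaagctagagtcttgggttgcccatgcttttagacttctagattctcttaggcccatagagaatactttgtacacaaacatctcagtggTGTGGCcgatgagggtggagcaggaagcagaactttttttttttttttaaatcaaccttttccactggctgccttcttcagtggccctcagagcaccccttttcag
Gimap7, chr6:48718371-48718620, plus strand: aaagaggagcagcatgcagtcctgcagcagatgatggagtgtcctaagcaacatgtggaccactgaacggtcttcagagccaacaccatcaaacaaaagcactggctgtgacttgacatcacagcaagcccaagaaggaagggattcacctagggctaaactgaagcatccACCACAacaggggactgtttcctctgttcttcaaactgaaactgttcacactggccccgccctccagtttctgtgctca
Gimap9, chr6:48675885-48676134, plus strand: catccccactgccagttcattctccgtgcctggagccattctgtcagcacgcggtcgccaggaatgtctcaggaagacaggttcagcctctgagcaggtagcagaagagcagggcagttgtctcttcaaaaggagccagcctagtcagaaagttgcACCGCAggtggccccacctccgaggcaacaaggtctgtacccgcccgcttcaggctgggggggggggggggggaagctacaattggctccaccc
Gimap4, chr6:48684328-48684577, plus strand: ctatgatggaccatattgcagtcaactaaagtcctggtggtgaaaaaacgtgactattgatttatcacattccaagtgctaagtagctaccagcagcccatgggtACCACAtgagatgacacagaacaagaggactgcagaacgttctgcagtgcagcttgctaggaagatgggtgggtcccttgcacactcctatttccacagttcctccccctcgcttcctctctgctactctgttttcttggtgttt
The hexamer TGTGGT was searched on both strands, and so was its variant TGTGGC. The search also covered the form TGCGGT and the last variant of the motif, TGCGGC. Gimap7 and Gimap4 hold TGTGGT on the opposite strand, with the first base at -79 and -145 from the start. Gimap9 holds TGCGGT on the opposite strand at -94, and Gimap3 holds TGTGGC on its own strand at -106. The genes that were not called in that comparison are shown as 30 bases around their first hexamer.
Gimap1, chr6:48738940-48738969, plus strand: aggaatgctaagACCACAactacatggaaa
Gimap5, chr6:48746027-48746056, plus strand: cagcactttccaGCCACAcatgggctttct
Gimap8, chr6:48647150-48647179, plus strand: tgtgctcccacaGCCACAtggtggcaccca
Gimap6 had no match in its window, which says only that these letters are not there. In windows of 250 bases before to 50 bases after the start, 7 of the 8 genes had a hexamer (8 of 9 records, since Gimap8 has 2 starts). A hexamer was also present in 45.2% of all 32851 promoter records of that length. Single hexamers were found in 16.8% (TGTGGT), 18.9% (TGTGGC), 6.45% (TGCGGT) and 12.4% (TGCGGC) of all records. The hexamer CCGGAA, which is 1 longer form of an ETS site (14.9% of all records), and the AP-1 site TGANTCA (7.81%) were found in 0 of the 9 Gimap records. The shorter ETS core GGAA was not counted. A match describes the sequence and is not a measured binding site.

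In IL-2, Gimap3, Gimap7, Gimap9 and Gimap4 rose in KO cells, by 2.04-fold to 3.86-fold, and 0 of the 8 genes fell. A call required a change of at least 1.5-fold and, in a limma fit with the pair as a block, an adjusted p (Benjamini-Hochberg, over all tested genes) under 0.05. By this rule 4 of 8 Gimap genes were called higher, against 10.5% of all tested genes called higher, 9.17% called lower and 19.7% called in either direction. The median difference of the 8 genes was 1.11 on the log2 scale, and that of all tested genes was 0.11. In 6 of 8 genes every KO array was above every WT array, which held for 31.1% of all tested genes, and in 0 of 8 every KO array was below (23.2% of all tested genes).

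Gimap3, the mouse relative of Gimap5, had the highest difference of the family. Its log2 signal was 12.70, 12.64 and 12.15 in KO cells and 10.34, 10.40 and 10.89 in WT cells. All KO arrays were thus more than 1 log2 unit above all WT arrays. The difference was 1.95 ± 0.60 (SD, 3 pairs), or 3.86-fold, with a limma adjusted p of 0.00781. Gimap7, whose human form can pair with other family members, had 10.79, 10.36 and 10.60 in KO cells and 9.03, 9.46 and 9.22 in WT cells. Its groups did not overlap, and the difference was 1.34 ± 0.43 (SD, 3 pairs, limma adjusted p = 0.0232).

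Gimap9 had 10.68, 10.25 and 10.61 in KO cells and 9.15, 9.58 and 9.22 in WT cells. It rose by 1.19 ± 0.46 (SD, 3 pairs, limma adjusted p = 0.0343), again without overlap. Gimap4, linked to cell death in T cells, was bright in every array, with 14.08, 13.78 and 14.14 in KO cells and 12.89, 13.19 and 12.82 in WT cells. Its difference was 1.03 ± 0.39 (SD, 3 pairs, limma adjusted p = 0.0379), and the lowest KO array was above the highest WT array.

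The other 4 genes did not pass. Gimap1, needed by mature lymphocytes, had 13.32, 13.06 and 12.75 in KO cells and 11.88, 12.14 and 12.45 in WT cells. The groups did not overlap, but the difference of 0.89 ± 0.57 (SD, 3 pairs) had a limma adjusted p of 0.0954. Gimap6, linked to autophagy, had 10.64, 9.90 and 10.17 in KO cells and 8.91, 9.65 and 9.38 in WT cells. Here too the groups were apart, with a difference of 0.92 ± 0.75 (SD, 3 pairs, limma adjusted p = 0.176).

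Gimap5, whose loss depletes NKC and T cells in animals, spread widely between arrays and came near log2 5 in WT cells. It had 8.01, 6.23 and 6.93 in KO cells and 4.87, 6.65 and 5.95 in WT cells. The groups overlapped, and the difference was 1.24 ± 1.79 (SD, 3 pairs, limma adjusted p = 0.254, 95% interval -0.45 to 2.92). Gimap8 had 11.74, 11.11 and 11.62 in KO cells and 11.06, 11.69 and 11.18 in WT cells. These groups overlapped as well, and the difference was 0.18 ± 0.66 (SD, 3 pairs, limma adjusted p = 0.724, 95% interval -0.58 to 0.94).

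**Figure D1:**
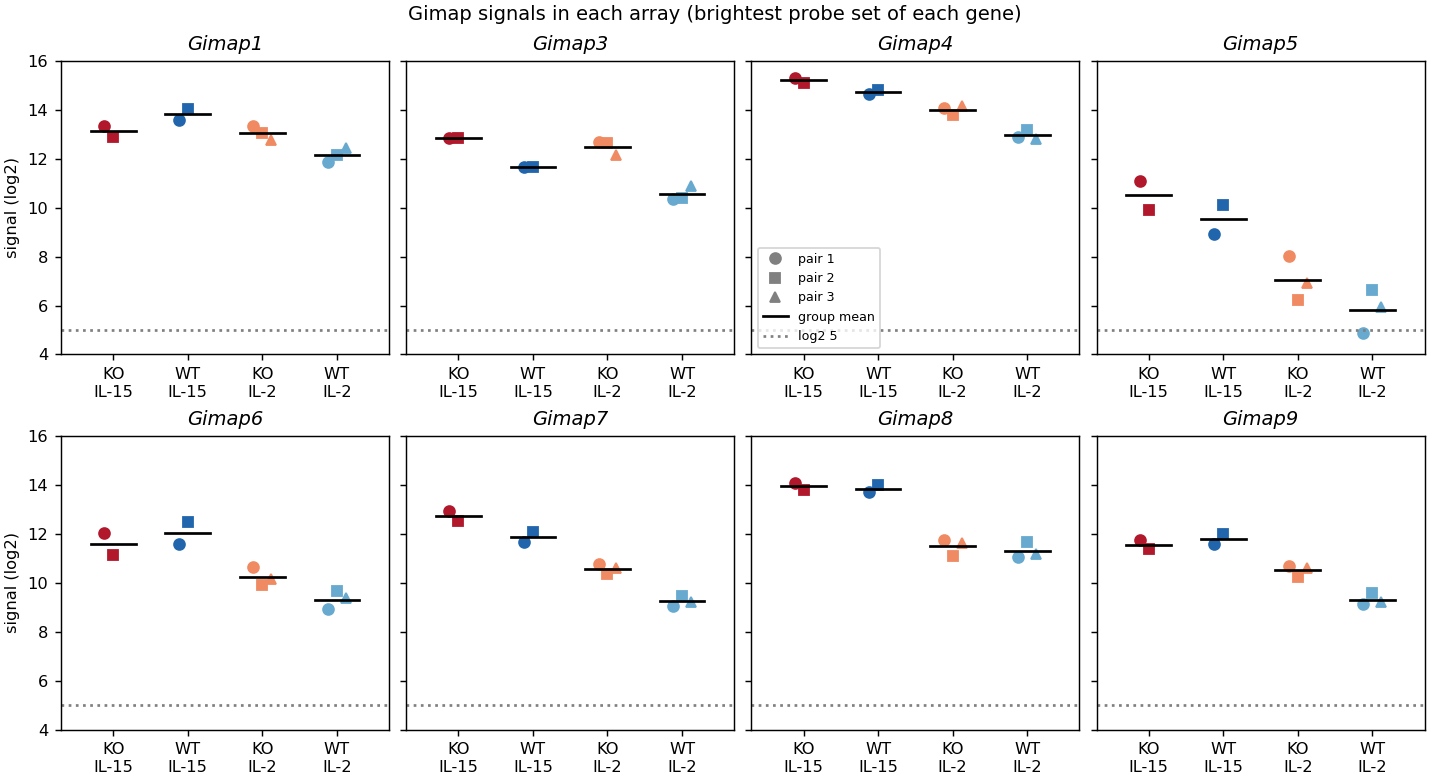
Log2 signal (vertical axis) of each Gimap gene in each array, by group, with markers for the pair number, a line at the group mean and a dotted line at log2 5. In all 8 genes the WT IL-2 group has the lowest mean of the 4 groups. In Gimap3, Gimap4 and Gimap7 the KO arrays lie above the WT arrays in both cytokines.

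The calls rested on few pairs. KO was above WT in all 3 IL-2 pairs for the same 6 genes whose arrays did not overlap. Gimap5 and Gimap8 had pairs of either sign. Pair 1 gave the highest difference in 7 of 8 genes, with 2.36 for Gimap3 and 3.14 for Gimap5. Without either array of pair 1, 0 of 8 genes were called (537 genes in all, against 1851 with every array). The Gimap3 difference was then 1.75 and its limma adjusted p was 0.0576. Without pair 3, Gimap3 alone was called, and without pair 2, Gimap3, Gimap7 and Gimap9 were. Without any 1 of the 4 IL-15 arrays, which lend their spread to the fit, Gimap3 and Gimap7 were called. With no filter on dim genes, or with the Xist signal as a covariate, Gimap3 alone was called. Xist was at 4.64 to 5.37 in every IL-2 array of both genotypes, and the block takes up its difference between the cytokines. The covariate therefore cannot test the sex of the donors.

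Summed signals of markers of other cell types also differed between the genotypes, without overlap for the B cell and endothelial lists in both cytokines and for the T cell list in IL-2. Such separation was common among single genes. All KO arrays were above all WT arrays in 31.1% of tested genes in IL-2 and 31.7% in IL-15. They were all below in 23.2% in IL-2 and 32.9% in IL-15. By the study's methods the cells had been sorted for DX5, and nearly all were NKp46+ after culture. In these bulk samples a change in the share of a cell type and a change in RNA per cell cannot be told apart. The summed log2 signal of the 7 measured B cell markers was 32.0 to 33.0 in KO cells in IL-2 and 24.5 to 25.5 in WT cells in IL-2. The genes behind it were Blk, a kinase of B cell receptor signalling (7.81, 7.75 and 8.75 in KO cells and 2.90, 2.96 and 1.97 in WT cells), and Ighm, the immunoglobulin mu chain (10.99, 11.01 and 10.86 in KO cells and 8.66, 8.64 and 8.78 in WT cells). The defining B cell markers Cd79a, Cd79b, Ms4a1, Cd22 and Pax5 were under log2 5 in all 10 arrays.

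The summed signal of 12 T cell markers was 69.6 to 74.1 in KO cells and 63.8 to 68.3 in WT cells in IL-2. Bcl11b and Lat rose there, and Cd4, Cd5, Cd6, Cd8a, Cd8b1 and Themis were under log2 5 in all 10 arrays. The other T cell markers tested were not called in IL-2 and ran in both directions. They differed by 0.90 ± 2.28 (Cd3d), 1.1 ± 1.1 (Cd3e), -0.56 ± 1.37 (Cd3g) and -0.17 ± 1.13 (Cd28) (SD, 3 pairs). Of 9 myeloid markers, the sum was 45.7 to 59.8 in KO cells and 38.0 to 52.0 in WT cells in IL-2, and H2-Aa and Cd74 rose while Cd14 fell. In IL-15 the B cell sum was 27.5 to 27.7 in KO cells and 25.6 to 25.9 in WT cells, and the T cell sum was 67.7 to 71.5 in KO cells and 66.7 to 70.4 in WT cells. The myeloid sum in IL-15 was 43.6 to 52.9 in KO cells and 35.6 to 44.9 in WT cells. Bcl11b rose in IL-15 too, by 1.80 ± 0.09 (SD, 2 pairs, limma adjusted p = 0.0426). The sum of 4 endothelial markers was lower in KO cells, at 12.8 to 13.9 in KO cells and 16.3 to 17.4 in WT cells in IL-2, and at 12.2 to 12.9 in KO cells and 14.2 to 14.9 in WT cells in IL-15. Pecam1 fell there in IL-2 (-3.45 ± 0.88, SD, 3 pairs, limma adjusted p = 0.00416), and Cdh5, Kdr and Tek were under log2 5 in every group. Of the NKC markers, Ncr1 and Tbx21 rose and Prf1 fell in KO cells in IL-2. The summed signal of the 11 measured NKC markers also differed without overlap in IL-15, at 132.1 to 133.2 in KO cells and 136.7 to 137.8 in WT cells. In IL-2 this sum overlapped, at 132.2 to 134.5 in KO cells and 130.5 to 132.8 in WT cells. Among single tested genes, 32.9% had all KO arrays below all WT arrays in IL-15. The part of these markers in the Gimap values was not tested.

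In IL-15 no Gimap gene was called in the KO versus WT comparison, and differences ran in both directions. Gimap3 was again the highest, at 12.86 and 12.87 in KO cells against 11.68 and 11.66 in WT cells. Gimap1, the only gene with both pairs lower, had 13.34 and 12.90 in KO cells against 13.60 and 14.04 in WT cells. By the same rule 0 of 8 genes were called in limma, against 0.458% of all tested genes called higher, 0.841% called lower and 1.30% in either direction. At an unadjusted p under 0.05, 2 of the 8 genes passed, Gimap3 and Gimap7, as did 1269 of the 9391 tested genes.

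The difference of Gimap3 in IL-15 was 1.20 ± 0.02 (SD, 2 pairs, limma adjusted p = 0.198, 95% interval 0.34 to 2.06). Both pairs gave nearly the same value, 1.18 and 1.21. Gimap7 had 12.94 and 12.53 in KO cells and 11.66 and 12.07 in WT cells, a difference of 0.87 ± 0.58 (SD, 2 pairs, limma adjusted p = 0.358). Gimap4 had 15.31 and 15.12 in KO cells and 14.64 and 14.83 in WT cells, a difference of 0.48 ± 0.27 (SD, 2 pairs, limma adjusted p = 0.614). In these 3 genes the KO arrays lay above the WT arrays, a pattern found in 31.7% of all tested genes.

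Gimap1 was the 1 gene with KO arrays below WT arrays, which held for 32.9% of all tested genes. Its difference was -0.70 ± 0.63 (SD, 2 pairs, limma adjusted p = 0.517, 95% interval -1.63 to 0.24). The other 4 genes overlapped between KO and WT. Gimap5 had 11.09 and 9.92 in KO cells and 8.95 and 10.11 in WT cells, and its pairs differed by 2.14 and -0.20. Gimap6 had 12.05 and 11.14 in KO cells and 11.60 and 12.51 in WT cells, with pair differences of 0.45 and -1.37. These values show no common direction even between the pairs of a gene.

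Gimap8 had 14.08 and 13.80 in KO cells and 13.71 and 13.99 in WT cells in IL-15, with a difference of 0.10 ± 0.40 (SD, 2 pairs). Gimap9 had 11.76 and 11.37 in KO cells and 11.60 and 11.99 in WT cells, with a difference of -0.23 ± 0.55 (SD, 2 pairs). Neither was called (limma adjusted p = 0.969 for Gimap8 and 0.872 for Gimap9). The median over the 8 genes was 0.29 in IL-15, and that over all tested genes was -0.01. As in IL-2, pair 1 was the higher one in 7 of 8 genes, here all but Gimap3.

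**Figure D2:**
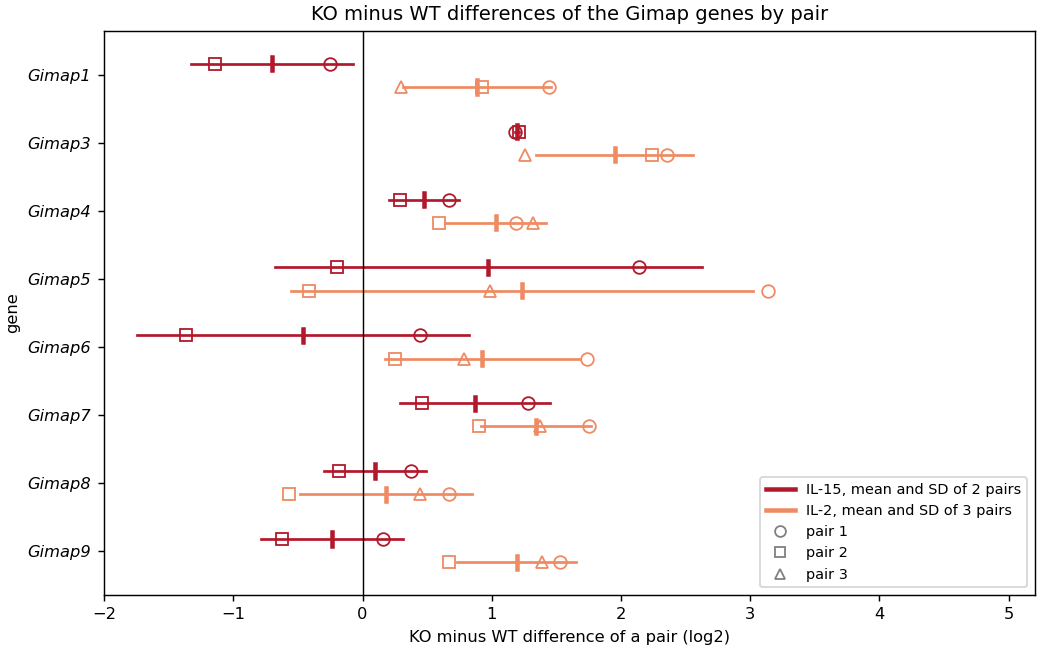
KO minus WT difference (log2, horizontal axis) of each pair for the 8 Gimap genes, with the mean (tick) and SD (line) of 2 pairs in IL-15 and 3 pairs in IL-2. The 3 IL-2 pairs lie above 0 in 6 genes, and both IL-15 pairs lie below 0 in Gimap1 alone.

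The 2 effects were then compared directly, as the KO versus WT difference in IL-15 minus that in IL-2. All 8 genes had a lower KO effect in IL-15 in this measure, with a median of -0.65 against -0.14 over all tested genes. None of these differences passed: 0 of 8 Gimap genes and 0 of 9391 genes were called in limma (0%). At an unadjusted p under 0.05, 2 of the 8 genes and 1106 of all tested genes passed. Gimap1 differed by -1.59 (limma adjusted p = 0.331, 95% interval -2.79 to -0.38) and Gimap9 by -1.43 (limma adjusted p = 0.337, 95% interval -2.54 to -0.32). For Gimap3 the value was -0.75 (limma adjusted p = 0.559, 95% interval -1.86 to 0.36). A different effect of Runx3 loss in the 2 cytokines was therefore not shown for any member. In this contrast, too, cytokine and the sex of the donors cannot be told apart, as the sex-linked genes given below show.

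Gimap4, Gimap6 and Gimap7 had a second, dimmer probe set, which gives a separate reading of the same gene in the same arrays. Probe sequences were not in the sources used here. Whether a Gimap probe set also picks up RNA of other family members could therefore not be checked. In IL-2 the KO versus WT mean was above 0 for all 11 probe sets. The dimmer Gimap4 probe set had 12.83, 12.60 and 12.90 in KO cells and 11.44, 11.67 and 11.36 in WT cells, and differed by 1.29 (limma adjusted p = 0.024 over 15758 probe sets). It was called, like the brighter one. The dimmer Gimap7 probe set had 7.27, 6.26 and 5.66 in KO cells and 3.81, 4.82 and 5.42 in WT cells, and was not called (difference 1.72, limma adjusted p = 0.0858).

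The dimmer Gimap6 probe set had 7.03, 5.63 and 5.54 in KO cells and 3.57, 4.97 and 5.06 in WT cells, and was not called either (difference 1.54, limma adjusted p = 0.108). For Gimap6 and Gimap7 the WT arrays of these second readings lay near or below log2 5. In IL-15 the Gimap7 probe sets disagreed in sign. The dimmer one had 8.83 and 8.29 in KO cells and 8.66 and 9.21 in WT cells, a difference of -0.37 against 0.87 for the brighter one.

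**Figure D3:**
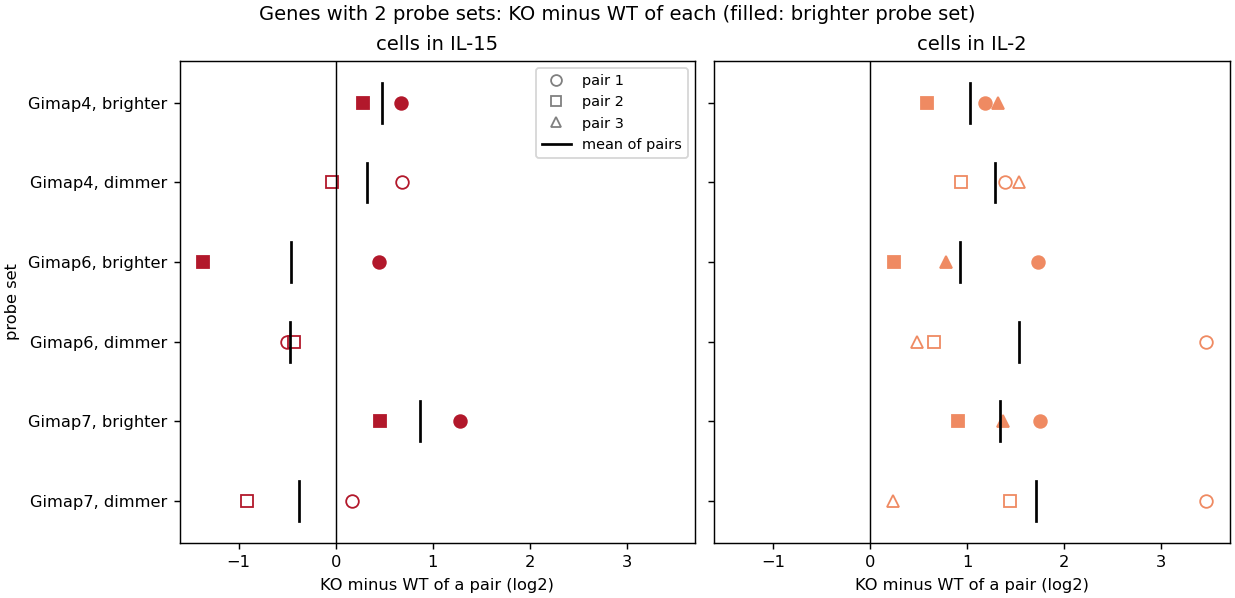
KO minus WT difference (log2, horizontal axis) of each pair for the 2 probe sets of Gimap4, Gimap6 and Gimap7, with filled markers for the brighter probe set and a black tick at the mean. In IL-2 all means lie above 0, and in IL-15 the brighter Gimap7 probe set has a mean of 0.87 while the dimmer one has -0.37.

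Gimap genes had higher mean signals in IL-15 than in IL-2, all 8 in either genotype. The difference was called for 6 of 8 genes in KO cells, all but Gimap1 and Gimap3, and for all 8 in WT cells. The median difference, IL-15 minus IL-2, was 1.28 in KO cells and 2.51 in WT cells, against -0.08 and 0.18 over all tested genes. In KO cells 23.6% of all tested genes were called higher in IL-15 (22.5% lower and 46.1% in either direction), and in WT cells 29.4% were (18.7% lower and 48.0% in either direction). The IL-15 arrays lay above the IL-2 arrays without overlap in 7 of 8 genes in KO cells (31.8% of all tested genes) and in 8 of 8 in WT cells (41.1%). They lay below in 0 of 8 genes in KO cells (36.5% of all tested genes) and in 0 of 8 in WT cells (28.9%). Because pair differences had been removed from the values, the spread behind these limma tests is too small by an unknown amount, and so are their p-values.

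The cytokine groups also differed in sex-linked expression. Xist, which is transcribed from the inactive X chromosome, was at 14.3 to 14.7 in every array of cells in IL-15 but at 4.64 to 5.37 in every array of cells in IL-2. Eif2s3y, a Y-linked gene, had means of 2.36 (KO) and 2.42 (WT) in IL-15 and 7.88 (KO) and 8.60 (WT) in IL-2. Cytokine and the sex of the donors cannot be told apart in these arrays.

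Gimap5 had the highest difference between the cytokines of the 8 genes, at 3.45 ± 0.68 in KO cells and 3.71 ± 0.68 in WT cells (SE, limma adjusted p = 0.00329 and 0.00221). Gimap8 followed in KO cells, with 2.45 ± 0.25 there and 2.54 ± 0.25 in WT cells (SE). In both genes all IL-15 arrays lay above all IL-2 arrays. Gimap7 differed by 2.15 ± 0.21 in KO cells and 2.63 ± 0.21 in WT cells (SE), also without overlap.

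Gimap6 differed by 1.35 ± 0.39 in KO cells and 2.74 ± 0.39 in WT cells (SE), and Gimap9 by 1.05 ± 0.22 in KO cells and 2.48 ± 0.22 in WT cells (SE). Gimap4 differed by 1.21 ± 0.17 in KO cells and 1.77 ± 0.17 in WT cells (SE). These 3 genes were called in both genotypes. Gimap1 was called in WT cells (1.66 ± 0.25, SE, limma adjusted p = 0.000865) and not in KO cells (0.07 ± 0.25, SE, limma adjusted p = 0.825). Gimap3 was likewise called in WT cells (1.13 ± 0.22, SE, limma adjusted p = 0.00289) and not in KO cells (0.37 ± 0.22, SE, limma adjusted p = 0.185). The difference between the genotypes in this respect is the same contrast as that between the KO effects, which did not pass.

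The order of the 4 groups was not the same in every gene. KO cells in IL-15 had the highest mean in 5 genes (Gimap3, Gimap4, Gimap5, Gimap7 and Gimap8), and WT cells in IL-15 in the other 3 genes. WT cells in IL-2 had the lowest mean in all 8. In Gimap4 and Gimap7 the order ran from KO in IL-15 through WT in IL-15 and KO in IL-2 to WT in IL-2, with no overlap between neighbours. Gimap3 was the exception in which KO cells in IL-2 stood above WT cells in IL-15. In Gimap5 and Gimap8 the genotypes overlapped within each cytokine, in Gimap6 and Gimap9 they overlapped in IL-15 only, and in Gimap1 the KO arrays of the 2 cytokines overlapped. The mean over the 8 genes was 12.93 and 12.46 in KO cells in IL-15, 12.18 and 12.65 in WT cells in IL-15, 11.49, 10.92 and 11.12 in KO cells in IL-2 and 9.77, 10.34 and 10.14 in WT cells in IL-2.

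The nearest measured genes beside the cluster were read in the same way, 6 protein-coding genes with a single-symbol probe set on each side. Genes without such a probe set could not be read. Of these 12, 8 passed the filter on dim signals, and in IL-2 3 rose in KO cells and 0 fell (Tmem176b, Tmem176a and Gpnmb), against 10.5% of all tested genes called higher and 9.17% lower. All 3 lie on the Gimap3 side of the cluster. Tmem176b, which encodes a membrane protein of antigen-presenting and lymphoid cells, had 12.24, 12.04 and 12.63 in KO cells in IL-2 and 9.11, 9.32 and 8.73 in WT cells. It rose by 3.25 ± 0.60 (SD, 3 pairs, limma adjusted p = 0.00242).

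Its relative and neighbour Tmem176a had 10.61, 10.09 and 11.45 in KO cells and 6.93, 7.46 and 6.09 in WT cells, and rose by 3.89 ± 1.37 (SD, 3 pairs, limma adjusted p = 0.00545). Gpnmb, a glycoprotein known from macrophages, had 9.19, 8.49 and 8.31 in KO cells and 3.11, 3.80 and 3.99 in WT cells. The WT mean was under log2 5, so that Gpnmb was at least 12.7-fold higher in KO cells when log2 5 stands for the WT mean (limma adjusted p = 0.0048). On the Gimap8 side 0 genes were called. Atp6v0e2, a proton pump subunit, came nearest, with means of 5.40 in KO cells and 4.04 in WT cells, at least 1.32-fold when log2 5 stands for the WT mean (limma adjusted p = 0.0563). In IL-15 0 of the 8 neighbours were called, with 1.85 ± 0.42 for Tmem176b and 1.92 ± 0.64 for Tmem176a (SD, 2 pairs). Gpnmb had 7.65 and 6.08 in KO cells and 2.90 and 4.47 in WT cells there, at least 3.63-fold higher when log2 5 stands for the WT mean (limma adjusted p = 0.116).

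**Figure D4:**
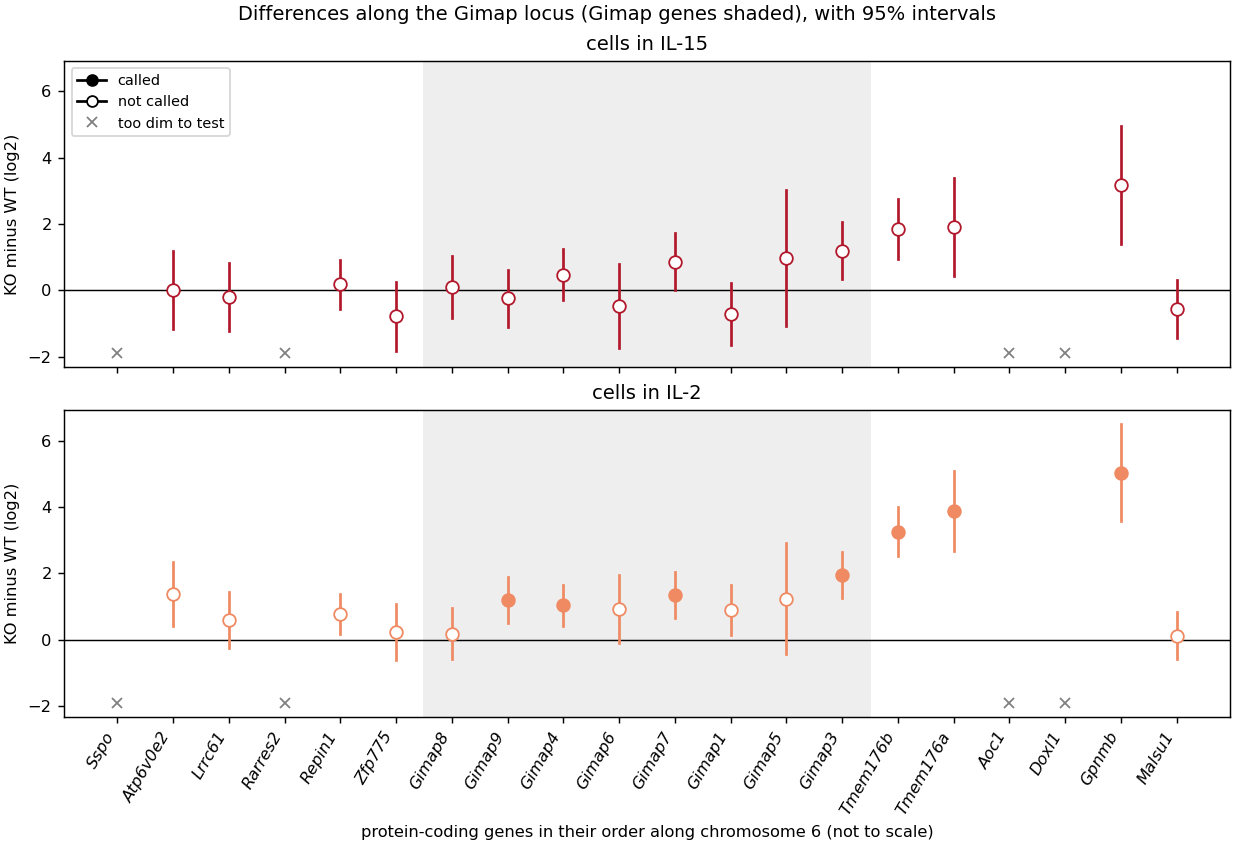
KO minus WT difference (log2, vertical axis) with its 95% interval for the Gimap genes (shaded) and their nearest measured neighbours. Genes stand in their order along chromosome 6, not to scale, in IL-15 and in IL-2. In IL-2 the called genes (filled) are Gimap9, Gimap4, Gimap7 and Gimap3 and, beyond Gimap3, Tmem176b, Tmem176a and Gpnmb, while in IL-15 none is called. The WT means of Gpnmb in both cytokines and of Atp6v0e2 are under log2 5, so their plotted differences are not exact.

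Proteins that GIMAP members are described to bind or act on were also counted, among them BCL2 family regulators of cell death, ATG8 family proteins of autophagy and the GSK3 beta branch. Of 15 listed genes 14 were tested. In IL-2 1 rose in KO cells and 0 fell, with a median of 0.22 (10.5% of all tested genes called higher and 9.17% lower). The riser was Nfatc1, a transcription factor of activated lymphocytes, with 12.79, 12.86 and 12.19 in KO cells and 10.63, 10.57 and 11.23 in WT cells (1.81 ± 0.73, SD, 3 pairs, limma adjusted p = 0.014). In IL-15 0 of these genes were called. Bcl2, which protects cells from death, differed by -0.21 ± 0.57 in IL-2 (SD, 3 pairs) and Bcl2l11, its antagonist, by 0.48 ± 0.91 (SD, 3 pairs), and neither was called.

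Genes of resting lymphocytes, the state in which Gimap genes are known to be highly expressed, were counted beside them. Of 16 listed genes 12 were tested, and in IL-2 5 rose in KO cells and 0 fell, with a median of 1.0 (10.5% of all tested genes called higher and 9.17% lower, with a median of 0.11). The list was chosen with results of these arrays known, so the count is a description. Klf2, a transcription factor that maintains quiescence, had 7.69, 7.83 and 7.41 in KO cells and 3.57, 3.43 and 3.85 in WT cells. Klf2 was at least 6.25-fold higher when log2 5 stands for its WT mean (limma adjusted p = 0.0077). Il7r, the IL-7 receptor chain, had 5.73, 4.81 and 5.65 in KO cells and 2.68, 3.60 and 2.76 in WT cells, and was at least 1.32-fold higher (limma adjusted p = 0.0102). This lower limit is under the 1.5-fold of the rule. The Il7r call rests on the deposited values, which differed by 5.22-fold and were partly under log2 5.

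The other 3 that rose were Slfn2, which keeps T cells quiescent (1.97 ± 0.63, SD, 3 pairs), Foxo3 (1.36 ± 0.70, SD, 3 pairs) and Ets1 (1.33 ± 0.11, SD, 3 pairs). Foxo3 and Ets1 are transcription factors of lymphocyte survival and development. In IL-15 0 of the 12 genes were called in the KO versus WT comparison, with a median of 0.22. Between the cytokines, 4 of the 12 were higher in IL-15 in KO cells and 10 of the 12 in WT cells, and 0 were lower. Of all tested genes 23.6% were higher in IL-15 in KO cells and 29.4% in WT cells. The limits on p-values and on the sex of the donors given above hold for these counts too.

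Over the 10 arrays the 8 genes ran together to different degrees. Each gene's Pearson correlation with the mean of the other 7 ranged from 0.645 for Gimap3 and 0.820 for Gimap1 to 0.984 for Gimap7. The genes outside the family whose signal followed the mean of the 8 most closely were Ugdh (0.995), 4930503L19Rik (0.993), Tgfbr1 (0.991), Epc1 (0.990), Hnrnpul2 (0.990) and Nr1d2 (0.989). These correlations describe 10 arrays in 4 groups that share pairs and cytokines, so they are not independent points.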

How the data were processed

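RNA of 10 samples was measured on Affymetrix mouse arrays. Signals were made by the authors with GC-RMA in Partek software, whose versions are not given in the sources used here, and the deposited values are log2 signals of 45101 probe sets, used without further scaling. The table holds 117 values above 16 and 10 below 0. The number of arrays limits the precision.

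A DX5 sort is also stated in the methods. Groups and pair numbers came from the sample titles. The numbers pair the samples: the sums of same-numbered KO and WT arrays were equal across numbers (largest difference 0.00014), whereas crossed sums differed by a median of 0.170 in IL-15 and 0.193 in IL-2. KO versus WT comparisons were therefore fitted with the pair as a block (3 residual degrees of freedom). IL-15 versus IL-2 comparisons had no block (6 nominal residual degrees of freedom), since a pair holds 1 cytokine.

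Of the probe sets, 34958 had 1 gene symbol, 932 several and 9211 none in the platform table. Identifiers of 34754 matched the RefSeq annotation (GRCm38.p6), which changed 0 symbols and served for names and gene order. The brightest single-symbol probe set stood for a gene and was tested at log2 5 or more in at least 2 arrays (9391 of 18194 genes). All 10 arrays were fitted with limma 3.58.1 (lmFit, eBayes) in R 4.3.3. Calls required a Benjamini-Hochberg adjusted p under 0.05 and 1.5-fold, and rose, fell and changed refer to calls. Where a group mean was under log2 5, the fold is a lower limit against log2 5. The scripts were tested on simulated data.

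Members and lists were chosen with earlier results of these data known. Named genes were the members, called genes of the lists and neighbours, Runx3, Xist, Eif2s3y and the 6 genes most correlated with the members' mean. Genes named beyond that (Atp6v0e2, Bcl2, Bcl2l11 and single markers) were chosen after their values were seen. Alternatives were the fit without the block, centring, quantile normalization, other filters, other probe sets, unadjusted p, leaving out each array, Xist as a covariate and 1 cytokine at a time.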

Additional observations from a re-analysis of the deposited data

Results flagged for a closer look

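The pairs of Gimap1 lay on opposite sides of 0 in the 2 cytokines, although Gimap1 was called in neither (limma adjusted p = 0.517 in IL-15 and 0.0954 in IL-2). KO was below WT in both IL-15 pairs (-0.26 and -1.14) and above WT in all 3 IL-2 pairs (1.44, 0.92 and 0.30). The KO effect in IL-15 minus that in IL-2 was -1.59 on the log2 scale, with a limma adjusted p of 0.331 (unadjusted p = 0.0173), so the test of the difference itself did not pass over all genes. Cytokine and the sex of the donors cannot be told apart in this contrast.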

How the results depend on the processing

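With 2 or 3 pairs and 3 residual degrees of freedom, calls sat close to the threshold and the number of arrays limits every value. Of the alternatives to the KO versus WT comparison in IL-2 (4 of 8 Gimap genes called), the fit without the replicate block called 5 (3803 genes in all, against 1851), centring called 3, no filter on dim genes called 1 (842 in all), the Xist covariate called 1, the IL-2 arrays alone called 2, and unadjusted p called 5 (3391 in all). Leaving out 1 array at a time called 0 to 3. Quantile normalization, a filter at log2 6 and the mean of probe sets each called 4, and the second probe sets called 3. In IL-15 (0 called, 122 in all), the fit without the replicate block called 2 (Gimap3 and Gimap7; 1321 in all), unadjusted p called 2 (1269 in all), and leaving out arrays called 0 to 0 (0 to 95 in all), and no filter called 0 in all. For the difference between the KO effects (0 called), the fit without the replicate block called 2 (Gimap1 and Gimap9, both lower; 1157 in all) and unadjusted p called 2 (1106 in all). IL-15 versus IL-2 gave 5 to 6 called genes in KO and 8 in WT under every alternative run. A block for that comparison could not be fitted. For KO versus WT, the fit without the replicate block treats the mirror-image arrays of a pair as separate measurements. Its spread and p-values are therefore too small, and its added calls carry no weight.

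Directions turned in these cases. In IL-2, Gimap8 ranged from -0.064 to 0.56 when 1 array was left out (-0.064 without either array of pair 1). In IL-15, leaving out 1 array leaves 1 pair, so the ranges are the differences of the single pairs and add nothing to them. They were -0.20 to 2.14 for Gimap5, -0.18 to 0.38 for Gimap8, -1.37 to 0.45 for Gimap6 and -0.62 to 0.16 for Gimap9. The second Gimap7 probe set gave -0.37 in IL-15. For the difference between the KO effects, Gimap8 gave 0.089 after quantile normalization and -0.46 to 0.20 when arrays were left out, and Gimap5 gave 0.27 with the Xist covariate and -1.43 to 0.91 when arrays were left out. Gimap1, IL-15 versus IL-2 in KO, ranged from -0.15 to 0.30. Quantile normalization moved the median of all genes by 0.11 for the difference between effects, -0.12 for IL-15 versus IL-2 in KO and -0.23 in WT. The cause of these changes was not tested.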
